A study of Mus musculus with 16 samples.

Results

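Genes named Zfp followed by a number encode zinc finger proteins of the mouse, and they were taken here as 1 family by their names on the array. The members were chosen by the scanner software's detection call: a Zfp gene entered when at least 1 of its probes was well above background on all 16 arrays of the study, and its value came from those probes alone. This rule kept 257 of the 332 Zfp names on the array (77.4%), with 353 of their 523 probes, among 14582 genes that passed the same rule. Since the call was required in every group, a Zfp mRNA lost in any group could not enter.

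AML12 is a line of mouse hepatocytes. The cells had been selected with a lentiviral vector that expresses an shRNA when doxycycline is added, either a scramble sequence or one directed at eIF6, and eIF6 is an initiation factor that keeps the large ribosomal subunit apart from the small one. Cells of all groups received doxycycline and then insulin for 1 h, at 100 nM by the methods and the sample descriptions, while another field of the labels gives the number 100 in mM. Sucrose gradients of their lysates were pooled into a subpolysomal and a polysomal fraction, which gave 4 groups of 4 one-colour Agilent arrays: scramble subpolysomal, scramble polysomal, eIF6 shRNA subpolysomal and eIF6 shRNA polysomal. The study describes the 4 samples of a group as biological replicates. The cells are pools of infected cells of 1 line and not animals or clones.

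Most Zfp proteins are transcription factors built from rows of C2H2 fingers. In each finger a pair of cysteines and a pair of histidines hold a zinc ion, and a short conserved linker joins it to the next. Many Zfp genes lie in clusters that arose by duplication and also carry a KRAB domain, which recruits Trim28 (KAP1) and, through it, the methyltransferase Setdb1 to silence retroelements and imprinted regions. Others have left this pattern and act in adipocyte commitment, in RNA processing or on the ribosome itself. An mRNA that is bound by many ribosomes sediments with polysomes, and one that is bound by few or none stays in the lighter subpolysomal fraction.

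The linker and the start of a finger are so alike between the genes that array probes can carry them. A probe was called finger-coding when a reading frame without a stop codon held the amino acids of the linker (Thr-Gly-Glu, Lys or Arg, Pro) or of the finger's knuckle (Cys, any 2 residues, Cys, any residue, Lys or Arg, any residue, Phe or Tyr), searched on the printed strand. This held for 34 of the 353 member probes (9.63%, in 32 genes), against 106 of all 39429 probes on the array (0.269%). The probes below are shown because they carry these conserved codons and return in the results. Capitals mark the linker or knuckle codons, and positions (mm9, as the files state them) are on the minus strand for all 5, where the stated interval of Zfp534 is 1 base shorter than its probe.
Zfp595, chr13:67418178-67418237: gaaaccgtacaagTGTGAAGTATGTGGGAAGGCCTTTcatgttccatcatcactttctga
Zfp457, chr13:67393554-67393613: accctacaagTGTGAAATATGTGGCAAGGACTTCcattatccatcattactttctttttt
Zfp58, chr13:67592422-67592481: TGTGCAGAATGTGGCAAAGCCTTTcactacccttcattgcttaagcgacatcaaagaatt
Zfp81, chr17:33471496-33471555: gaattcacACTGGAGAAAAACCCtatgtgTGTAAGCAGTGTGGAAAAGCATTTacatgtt
Zfp534, chr4:147048379-147048437: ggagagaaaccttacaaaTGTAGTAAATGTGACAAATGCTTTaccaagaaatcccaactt

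Of the other 75 Zfp names, 55 were well above background on 1 to 15 arrays and 20 on none. The members just inside the rule were Zfp712, Zfp389 and Zfp420, with mean log2 intensities of 4.53, 4.64 and 4.75. The names just outside it, detected on 15 arrays, were led by Zfp521 (5.73), Zfp114 (4.98) and Zfp651 (4.56). Among the names left out, chosen after their values were seen, Zfp286 was well above background on 7 of the 8 scramble arrays and Zfp287 and Zfp583 on 6 of 8, while all 3 were well above background on 0 of the 8 eIF6 shRNA arrays. Other names left out went the other way. Zfp456 was detected on 4 and Zfp174 on 3 eIF6 shRNA polysomal arrays and on 0 of any other group. Zfp612 was detected on 1 subpolysomal and 0 polysomal arrays of scramble cells, against 2 and 4 of eIF6 shRNA cells. These names were dim, with mean log2 intensities of 3.29 (Zfp286), 2.79 (Zfp287), 2.93 (Zfp583), 2.94 (Zfp456), 2.71 (Zfp174) and 3.20 (Zfp612). The rule therefore leaves out dim names whose detection differed between the shRNAs, in either direction. Such differences in detection were not counted over all genes.

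Between 20194 and 24957 of 39429 probes were well above background on an array, and no spot reached saturation. Precision is limited by how many arrays a group has. Eif6 mRNA was lower on polysomes of eIF6 shRNA cells (mean log2 signals 12.95 and 11.89, change -1.05, SE 0.08, adjusted p = 3.2e-08 from limma). In subpolysomes it changed by 0.02 (adjusted p = 0.91), so the knockdown was seen in 1 of the fractions. Of 10 hepatocyte markers, Alb, which defines hepatocytes, was well above background on 7 of 16 arrays and Apoa1 on 2, and the other 8 on all 16. Mesenchymal markers (6 genes: Col1a1, Col1a2, Col3a1, Vim, Acta2 and Pdgfrb) were detected on all 16 arrays, and 5 were called lower in eIF6 shRNA cells in each fraction, with median log2 changes of -3.03 on polysomes and -1.39 in subpolysomes. Their summed log2 signal was 17.31 to 18.07 in scramble and 14.73 to 15.42 in eIF6 shRNA polysomes, and 17.01 to 17.10 against 15.87 to 16.18 in subpolysomes. The part of this shift in the Zfp values below was not tested, and in such bulk samples fewer cells of a type cannot be told apart from less RNA per cell.

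Relative to all genes, Zfp mRNAs lay towards the subpolysomal end of the gradient in scramble cells. The distance of the family from all genes, as the median log2 signal of the 257 Zfp genes minus that of all 14582 genes, was -1.10, -1.16, -1.15 and -1.15 on the 4 scramble subpolysomal arrays and -1.35, -1.37, -1.37 and -1.46 on the scramble polysomal arrays. Every polysomal array of scramble cells was thus below every subpolysomal one. In eIF6 shRNA cells the distance was -1.23, -1.21, -1.29 and -1.19 in subpolysomes and -1.34, -1.32, -1.32 and -1.44 on polysomes. The subpolysomal arrays of eIF6 shRNA cells were all below those of scramble cells, while the polysomal arrays of the shRNAs overlapped. These distances compare arrays and carry no test.

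**Figure D1:**
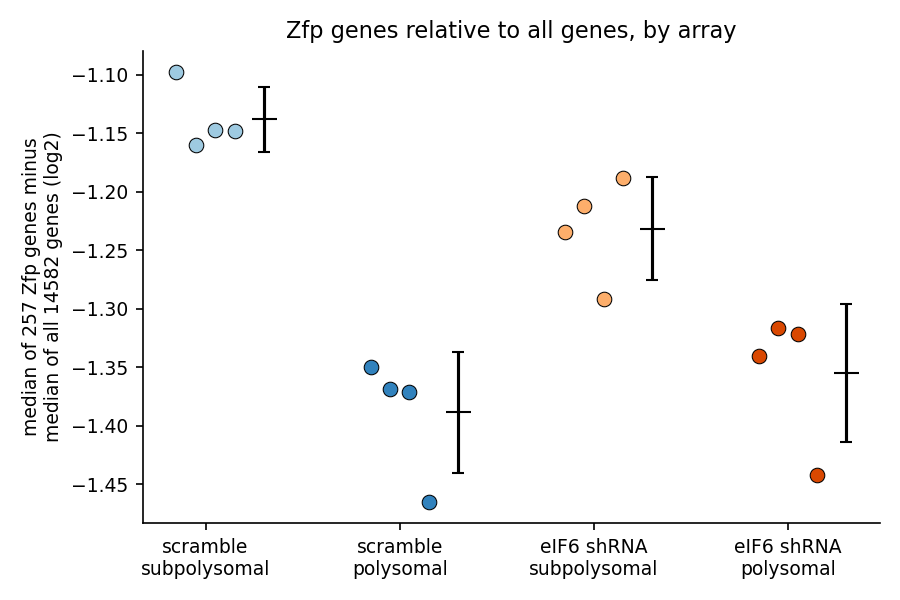
Median log2 intensity of the 257 Zfp genes minus that of all 14582 genes (vertical axis, log2) for each of the 16 arrays by group. Points are arrays, and the bars beside them give the mean and SD (n = 4). The scramble subpolysomal arrays sit highest, at -1.16 to -1.10, the eIF6 shRNA subpolysomal arrays at -1.29 to -1.19, and the polysomal groups overlap.

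The polysomal to subpolysomal ratio asks how an mRNA is spread over the gradient. In scramble cells, 133 of the 257 Zfp genes had a lower polysomal than subpolysomal signal (51.8%, beside 33.4% of all genes called lower) and 31 had a higher one (12.1%, beside 35.4% of all genes), by limma at an adjusted p under 0.05 over all genes. In eIF6 shRNA cells the counts were 100 lower (38.9%, beside 32.9%) and 54 higher (21.0%, beside 35.7%). The median log2 ratio of the Zfp genes was -0.31 in scramble and -0.09 in eIF6 shRNA cells, against 0.01 and 0.03 for all genes. Each array had been normalized to the same distribution, so the ratio is relative to other mRNAs. Scaled to the 75th percentile, where the median of all genes moved to -0.21 and -0.20, 187 members were lower and 17 higher in scramble cells (72.8% and 6.61%, beside 44.6% and 27.5% of all genes), and 165 lower and 28 higher in eIF6 shRNA cells (64.2% and 10.9%, beside 44.2% and 26.7%). Scaled to spike-in probes, where the median of all genes moved to 1.65 and 1.48, 2 were lower and 181 higher (0.778% and 70.4%, beside 1.39% and 78.0% of all genes), and 1 lower and 169 higher (0.389% and 65.8%, beside 1.82% and 69.6%), so the split of the calls follows the scaling. The distance of the members' median from that of all genes in scramble cells was -0.326 with quantile normalization and -0.441 with either scaling. Both scalings move all genes of an array by the same amount, which cancels in this distance, so they give 1 value.

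Of the genes lower on polysomes, 96 were called so in both cell populations (96 of 133 in scramble and 96 of 100 in eIF6 shRNA cells). Calls shared by both populations were counted for the members alone, with no share of all genes to set beside them. Zfp276, a C2H2 protein, had log2 signals of 10.58, 10.49, 10.54 and 10.67 in subpolysomes and of 8.80, 8.73, 8.78 and 8.88 on polysomes of scramble cells. In eIF6 shRNA cells they were 10.76, 10.64, 10.62 and 10.57 against 9.09, 8.94, 8.88 and 8.75. The fractions did not overlap in either (log2 ratios -1.78 and -1.73, SE 0.08), and Fanca and Vps9d1 overlap Zfp276 in RefSeq. Zfp101 (-1.72 and -1.55) and Zfp329 (-1.61 and -1.54) followed, and Zfp329 was at 0.09 in scramble cells when scaled to the spike-in probes and overlaps Zscan18 in RefSeq. The lowest ratios were those of Zfp658, Zfp408 and Zfp663, whose probes are described further on.

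At the other end, 28 members were called higher on polysomes in both (28 of 31 and 28 of 54), again counted for the members alone. Zfp704 had log2 ratios of 1.31 in scramble and 1.25 in eIF6 shRNA cells (SE 0.19), and its signals by array are given further on. This is a polysomal signal 2.49 and 2.38 times the subpolysomal one on average. Zfp395, a C2H2 factor also known as papillomavirus binding factor, had mean ratios of 1.01 and 1.07. Zfp369 (1.15 and 0.85), Zfp229 (0.93 and 0.99), Zfp580 (0.91 and 0.83), Zfp946 (0.86 and 1.01) and Zfp251 (0.67 and 1.05) were also higher on polysomes in both. Zfp213 (0.88 and 1.06) was called likewise. Zfp428 was at 1.21 and 0.99, with 1.27 and 1.00 from a probe with a run of GAG repeats and 1.14 and 0.97 from its other probe.

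Of the genes chosen as KRAB silencers, 5 of 7 were members, and 4 of these 5 were called lower on polysomes in both cell populations, with none higher. Among all genes, 33.4% were called lower in scramble and 32.9% in eIF6 shRNA cells, and among the Zfp genes 51.8% and 38.9%. Zfp57, which keeps methylation at imprinted regions, had log2 signals of 8.33, 8.29, 8.14 and 8.59 in subpolysomes and of 6.98, 6.65, 6.93 and 7.29 on polysomes of scramble cells. In eIF6 shRNA cells they were 8.38, 8.11, 8.04 and 7.97 against 6.60, 7.05, 6.47 and 6.70. The fractions did not overlap in either (log2 ratios -1.37 and -1.42). Zfp445, which acts with it on imprinted regions, had mean ratios of -0.86 and -0.69, Zfp932 of -1.13 and -0.87, and Zfp809, which silences retroviruses, of -0.36 and -0.33. Zfp568 was not called (-0.16 and 0.02). None of the 5 was called in any comparison of the shRNAs.

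Of 10 genes chosen for roles in RNA and translation, 8 were members, and 4 were lower and 1 higher on polysomes in both cell populations. In scramble cells 51.8% of the Zfp genes were lower and 12.1% higher, beside 33.4% and 35.4% of all genes. In eIF6 shRNA cells these shares were 38.9% and 21.0%, beside 32.9% and 35.7%. Zfp346, which binds double-stranded RNA, had ratios of -1.40 in scramble and of -1.28 in eIF6 shRNA cells (SE 0.15 for both). Zfp326, which acts in transcript elongation and splicing, was at -1.21 and -1.10, and Zfp830, a splicing protein, at -0.89 and -0.85. Zfp259 (Zpr1), which binds the elongation factor eEF1A, was at -0.31 and -0.48. Zfp106, an RNA-binding protein, was on the other side at 0.61 and 0.55. Zfp598, the ubiquitin ligase of collided ribosomes, was not called at -0.33 and -0.07, nor was Zfp622 at -0.11 and -0.03.

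**Figure D2:**
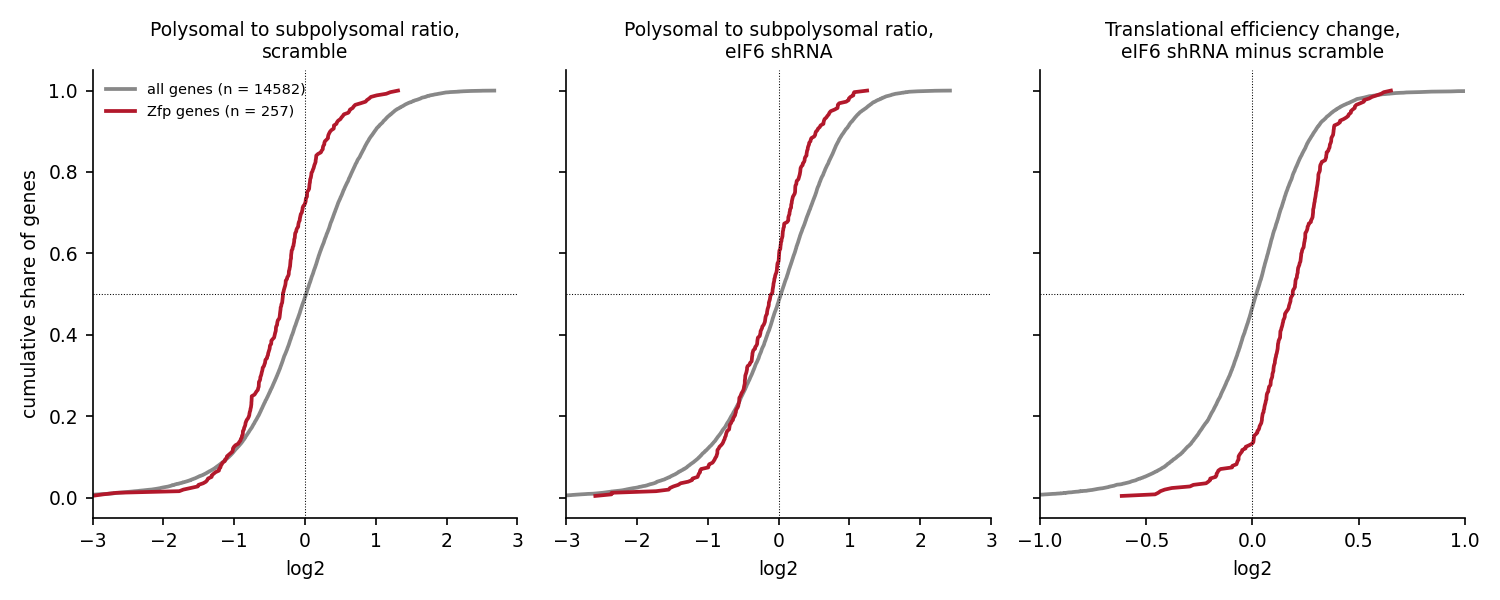
Cumulative share of genes (vertical axis) over the log2 polysomal to subpolysomal ratio in scramble cells, the same ratio in eIF6 shRNA cells, and the change in translational efficiency (horizontal axes, log2) for the 257 Zfp genes and all 14582 genes. The medians of the Zfp genes are -0.31, -0.09 and 0.19, against 0.01, 0.03 and 0.02 for all genes.

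The effect of eIF6 depletion was then compared within each fraction, as eIF6 shRNA minus scramble. On polysomes, 14 Zfp genes were lower (5.45%, beside 11.8% of all genes called lower) and 28 higher (10.9%, beside 13% of all genes). In subpolysomes, 51 were lower (19.8%, beside 14.3%) and 17 higher (6.61%, beside 15.5%). The median log2 change was 0.07 on polysomes and -0.13 in subpolysomes, against 0.01 and 0.02 for all genes, and 179 of 257 Zfp genes (69.6%) were below 0 in subpolysomes, against 47.9% of all genes. All 14 genes lower on polysomes were also lower in subpolysomes (14 of 14 and 14 of 51), and 12 were higher in both (12 of 28 and 12 of 17). Another 37 were lower in subpolysomes alone, 16 higher on polysomes alone and 5 higher in subpolysomes alone, while 173 were called in neither. Few changes were large: 3 of the 14 and 3 of the 51 fell 2-fold or more, and 0 of the 28 and 2 of the 17 rose as much. The joint and 2-fold counts were made for the members alone, so they do not set the family apart from other genes.

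Leaving out single arrays moved these counts. Over the 16 fits, 12 to 16 members were lower and 19 to 32 higher on polysomes. In subpolysomes, 41 to 62 were lower and 11 to 22 higher. The 11 came without scramble subpolysomal replicate 1, or without eIF6 shRNA subpolysomal replicate 2 or 3. The 19 came without scramble polysomal replicate 1 or 2, or without eIF6 shRNA polysomal replicate 3. Scaled to the spike-in probes, the median of all genes moved to -0.46 on polysomes and -0.24 in subpolysomes. On polysomes 3 members were then lower and 0 higher (1.17% and 0%, beside 4.03% and 0.0892% of all genes). In subpolysomes 2 were lower and 0 higher (0.778% and 0%, beside 1.38% and 0.0480%). Within each of the 4 slides, which held 1 array of every group, the members' median minus that of all genes lay between 0.005 and 0.122 on polysomes and between -0.148 and -0.097 in subpolysomes.

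**Figure D3:**
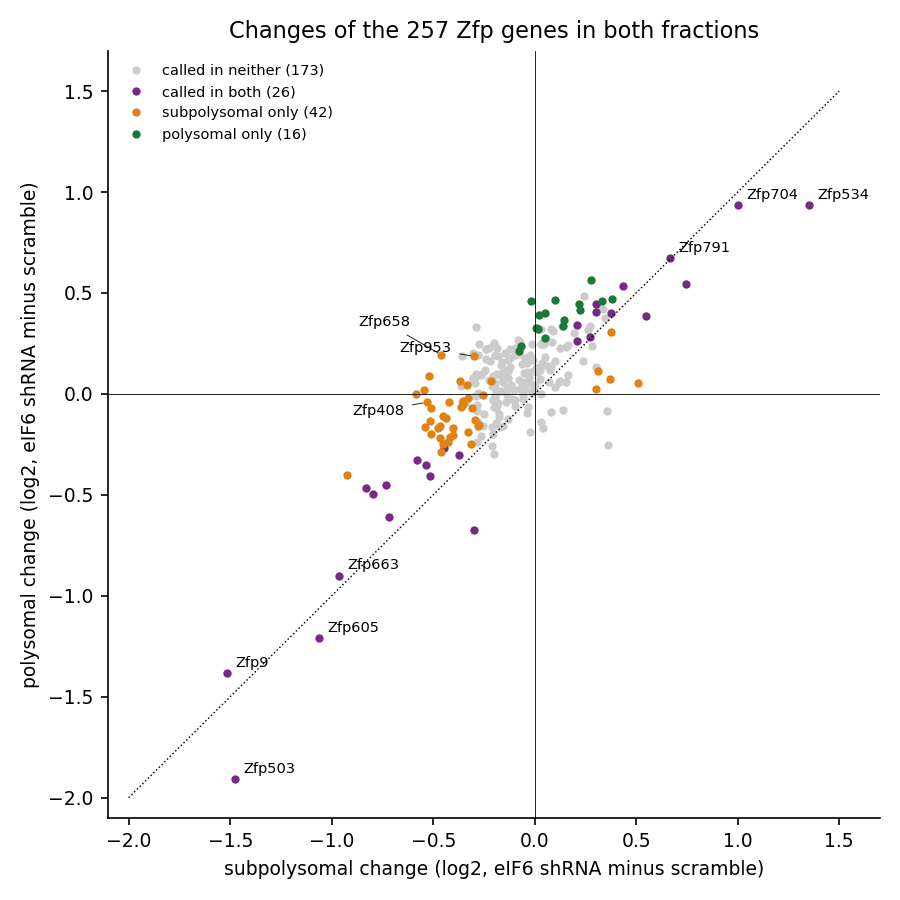
Log2 change of each of the 257 Zfp genes in subpolysomes (horizontal) and on polysomes (vertical), eIF6 shRNA minus scramble. Colours mark the fractions in which limma called a gene, and the dotted line marks equal changes. Genes lower in subpolysomes alone (37) lie left of the centre, and Zfp503, Zfp9 and Zfp605 stand apart at the lower left.

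The strongest decreases were in genes lower in both fractions. Zfp503, a repressor of the NET family that acts in development, had log2 signals on polysomes of 6.42, 6.57, 6.35 and 6.93 in scramble cells and of 4.29, 4.55, 4.87 and 4.94 in eIF6 shRNA cells. In subpolysomes they were 6.11, 6.20, 6.37 and 5.95 against 4.93, 4.12, 4.83 and 4.87. All scramble arrays were above all eIF6 shRNA arrays, and Zfp503 fell by 3.75-fold on polysomes (log2 -1.91, SE 0.19, adjusted p = 7.15e-07 from limma) and by 2.78-fold in subpolysomes (log2 -1.47, adjusted p = 1.66e-05). Another gene, A330001L22Rik, overlaps it in RefSeq, as other genes overlap Zfp605 (Gm15484), Zfp608 (Gm4221), Zfp52 (9330136K24Rik), Zfp663 (Gm29831), Zfp704 (C030034L19Rik), Zfp423 (Gm34412), Zfp213 (6330415G19Rik), Zfp445 (Zkscan7), Zfp809 (Zfp599), Zfp830 (Cct6b) and Zfp91 (Lpxn). Zfp9 had polysomal signals of 6.37, 6.12, 5.86 and 6.26 in scramble and 4.35, 4.98, 4.43 and 5.30 in eIF6 shRNA cells, and subpolysomal signals of 6.34, 6.35, 6.25 and 5.40 against 4.66, 4.53, 4.53 and 4.55. It fell by 1.38 on polysomes (SE 0.22, adjusted p = 0.00013 from limma) and by 1.52 in subpolysomes (adjusted p = 6.15e-05) on the log2 scale. Replicate 4 of scramble subpolysomes was the lowest of its group and still above all eIF6 shRNA arrays.

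Zfp605 had polysomal log2 signals of 7.88, 7.86, 7.93 and 7.59 in scramble and of 6.73, 6.73, 6.66 and 6.29 in eIF6 shRNA cells, and subpolysomal ones of 7.71, 7.57, 7.58 and 7.78 against 6.59, 6.59, 6.68 and 6.54. The groups lay far apart, with a change of -1.21 on polysomes (SE 0.11, adjusted p = 1.74e-07 from limma) and of -1.06 in subpolysomes. Zfp608 changed by -0.61 and -0.72, and Zfp52 by -0.46 and -0.83. Zfp957 was lower in subpolysomes (-0.93, adjusted p = 0.000916 from limma) and was not called on polysomes (-0.40, adjusted p = 0.121).

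The strongest increases were those of Zfp534 and Zfp704. Zfp534 had subpolysomal log2 signals of 6.63, 6.35, 6.34 and 6.67 in scramble and of 7.75, 7.88, 7.92 and 7.85 in eIF6 shRNA cells, a change of 1.35 (SE 0.15, adjusted p = 3.16e-06 from limma). On polysomes they were 6.34, 6.25, 6.77 and 5.82 against 7.22, 7.11, 7.30 and 7.30 (change 0.94, adjusted p = 0.000129). Its probe, printed above with the codons of a finger, shares runs of at least 16 bases with probes of 13 other gene names, 6 of them Zfp genes. Of these 13, 7 were tested, with changes up to 1.11 in subpolysomes and a median of -0.03. Zfp704 had polysomal signals of 7.68, 7.84, 7.54 and 7.20 in scramble and of 8.40, 8.37, 8.63 and 8.61 in eIF6 shRNA cells. In subpolysomes they were 6.34, 6.71, 6.43 and 5.53 against 7.21, 7.15, 7.19 and 7.46. No arrays overlapped, and Zfp704 changed by 0.94 on polysomes (SE 0.19, adjusted p = 0.00168 from limma) and by 1.00 in subpolysomes (adjusted p = 0.000978). Zfp784 (0.55 and 0.75), Zfp512 (0.53 and 0.44) and Zfp524 (0.39 and 0.55) were also higher in both, and Zfp358 was higher on polysomes (0.56, adjusted p = 0.00103) and not called in subpolysomes (0.28, adjusted p = 0.07).

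Of 10 genes chosen for adipocyte and metabolic roles, 6 were members, of which 1 was lower and 1 higher on polysomes and 1 lower and 2 higher in subpolysomes. Of all genes, 11.8% were lower and 13% higher on polysomes, and 14.3% and 15.5% in subpolysomes. Zfp467, which favours adipocytes over osteoblasts, had polysomal log2 signals of 6.38, 6.32, 6.29 and 6.40 in scramble and of 5.70, 5.76, 5.69 and 5.54 in eIF6 shRNA cells (change -0.68, SE 0.08, adjusted p = 4.73e-06 from limma). In subpolysomes they were 5.59, 5.74, 5.58 and 5.73 against 5.49, 5.38, 5.29 and 5.28 (change -0.30, adjusted p = 0.00874). The groups did not overlap in either fraction, but the 3 probes gave -1.01, -0.76 and -0.26 on polysomes and -0.71, -0.27 and 0.10 in subpolysomes. The polysomal change was negative in each probe and the subpolysomal change was not. Zfp423, which commits cells to the adipocyte lineage, had subpolysomal signals of 4.65, 5.32, 4.97 and 4.74 in scramble and of 5.41, 5.35, 5.46 and 5.50 in eIF6 shRNA cells. It was called higher there (0.51, SE 0.13, adjusted p = 0.00876 from limma) and not on polysomes (0.05, adjusted p = 0.835). With its dimmer probes, which were not well above background on all arrays, its subpolysomal change was -0.49, so its direction depends on the probes taken.

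Zfp30, a KRAB protein linked to adipogenesis, had polysomal signals of 7.64, 7.59, 7.39 and 7.77 in scramble and 7.83, 8.04, 8.04 and 8.08 in eIF6 shRNA cells. It was higher on polysomes (0.40, adjusted p = 0.0279 from limma, -0.06 when scaled to the spike-in probes) and in subpolysomes (0.38, adjusted p = 0.0331), without overlap of the arrays. Its call on polysomes was lost in 6 of the 16 fits that left out 1 array and its call in subpolysomes in 4. Zfp407, Zfp746 and Zfp217 were called in neither fraction.

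Among the RNA and translation genes, 1 of 8 was called in a comparison of the shRNAs, as higher on polysomes (all genes: 13% higher and 11.8% lower). Zfp622, the mammalian relative of yeast Rei1, acts in late maturation of the large ribosomal subunit in the cytoplasm, the subunit that eIF6 binds. Its log2 signal on polysomes was 14.10, 14.08, 14.13 and 14.51 in scramble and 14.42, 14.33, 15.02 and 14.93 in eIF6 shRNA cells. The groups overlapped, and limma called it higher by 0.47 (SE 0.14, adjusted p = 0.0217), with -0.01 when scaled to the spike-in probes. In subpolysomes it was 14.25, 14.36, 14.39 and 14.27 against 14.75, 14.73, 14.74 and 14.58, where all eIF6 shRNA arrays were above all scramble arrays but the change of 0.38 was not called (adjusted p = 0.0517). The polysomal call was lost in 5 of the 16 fits that left out 1 array.

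Of 14 widely expressed transcription factors, 12 were members, with 1 higher on polysomes and 3 lower in subpolysomes (all genes: 13% higher on polysomes and 14.3% lower in subpolysomes). Zfp91, a ubiquitin ligase of the NF-kB pathway, was higher on polysomes by 0.24 (adjusted p = 0.034 from limma), at -0.28 when scaled to the spike-in probes, and lost its call in 5 of the 16 fits that left out 1 array. Zfp148 (ZBP-89), Zfp131 and Zfp263 were lower in subpolysomes (-0.37, -0.40 and -0.31), and none of these 3 was called on polysomes (0.06, -0.17 and -0.07).

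**Figure D4:**
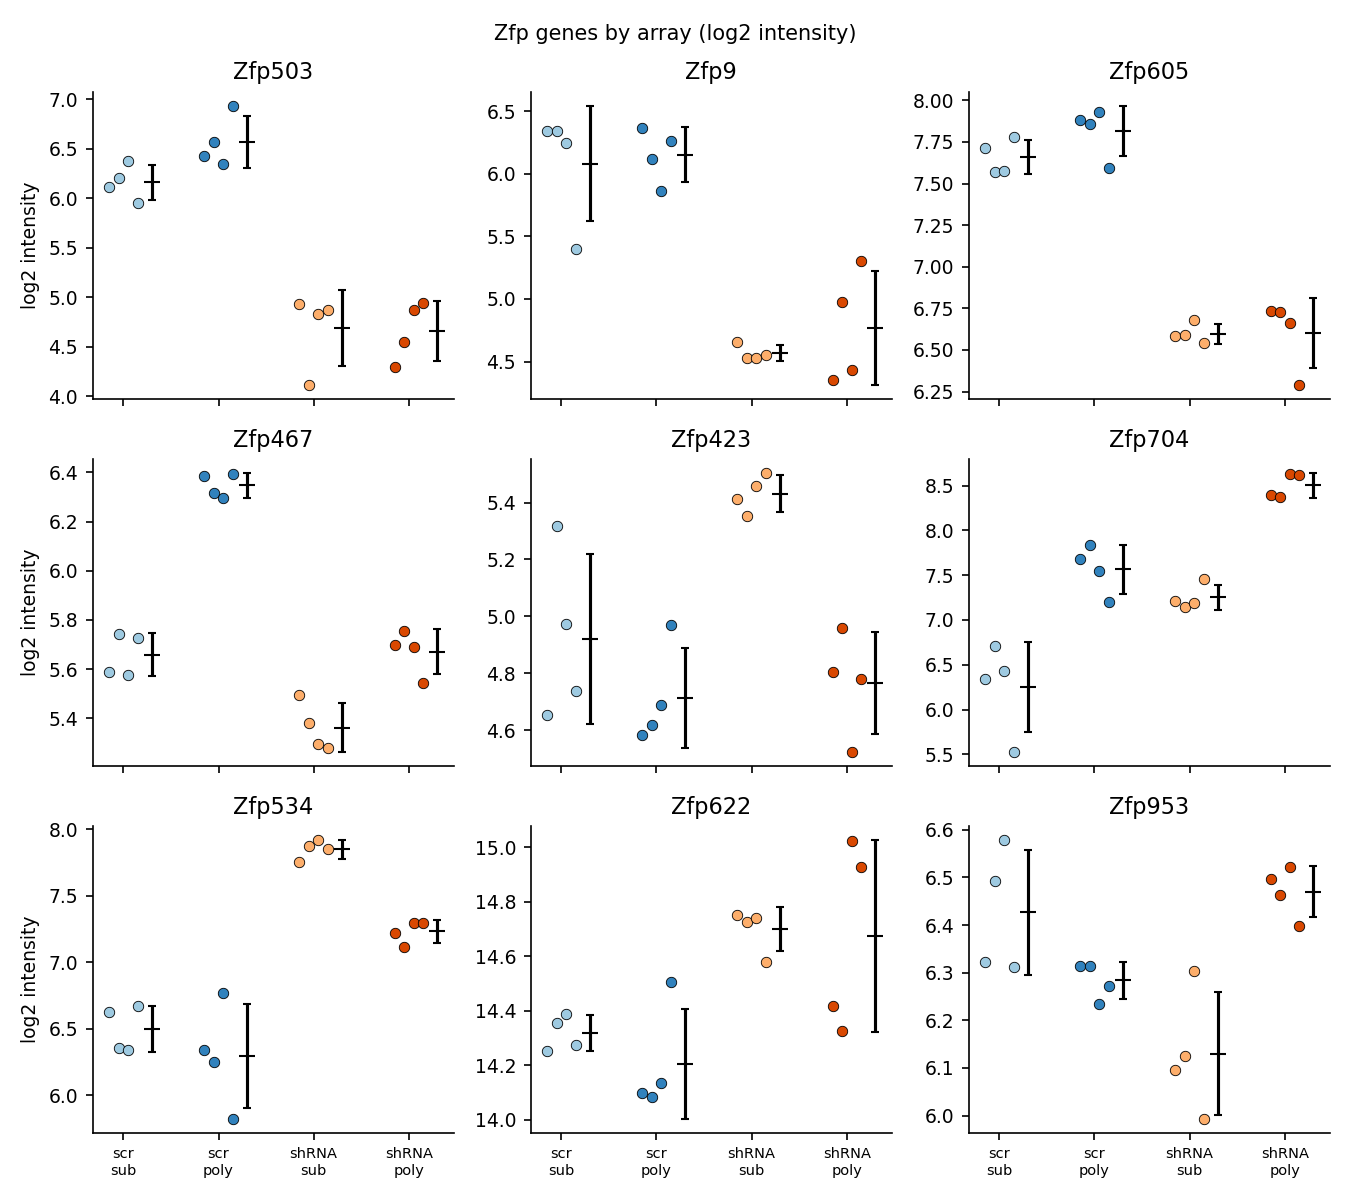
Log2 intensity (vertical axes) of 9 Zfp genes in scramble (scr) and eIF6 shRNA cells, subpolysomal (sub) and polysomal (poly) RNA. Points are arrays, and bars give the mean and SD (n = 4). Zfp503, Zfp9 and Zfp605 are lower in eIF6 shRNA cells in both fractions, Zfp704 and Zfp534 are higher, and Zfp423, by the probe detected on all arrays, is higher in subpolysomes alone.

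Subtracting a gene's subpolysomal from its polysomal change gave its change in translational efficiency. For 34 of the 257 Zfp genes (13.2%, against 46.9% of all genes) it was below 0 and for the others above 0, with a median of 0.19 against 0.02 for all genes, and the middle of the distribution ran from 0.07 to 0.30 (quartiles) against -0.15 to 0.16. Of the 34 members below 0, limma called 0, and it called 3 higher (1.17%, beside 0.363% of all genes called higher and 1.47% called lower). At an unadjusted p under 0.05 there were 4 lower and 53 higher, beside 8.12% of all genes lower and 4.78% higher. Without eIF6 shRNA subpolysomal replicate 4, 5 were called higher.

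For this shift, the members' median minus that of all genes was 0.172 with quantile normalization. It was 0.165 under scaling to the 75th percentile or to the spike-in probes. Both scalings move all genes of an array by the same amount, which cancels in this difference. They therefore give 1 value and are not separate tests of the shift relative to all genes. The calls were 1 lower and 1 higher with the percentile (all genes: 3.09% and 0.254%). They were 0 with spike-ins (all genes: 0.00686% lower and 0% higher). With spike-ins the medians themselves were below 0, at -0.03 for the members and -0.20 for all genes, and 146 members were below 0, against 45 with the percentile. Within the 4 slides the members' median minus that of all genes lay between 0.135 and 0.254. It was present in each quartile of signal, with members' medians of 0.25, 0.18, 0.15 and 0.09 from the dimmest to the brightest quartile against 0.02, 0.03, 0.02 and 0.00 for all genes (91, 91, 49 and 26 members). The dimmer members thus had the higher medians. By GC content of the probes, from the lowest quartile to the highest, the members were at 0.21, 0.23, 0.23 and 0.12 against 0.11, 0.05, -0.01 and -0.06 for all genes. Probe GC content had a median of 40.0% in members and 43.3% in all genes, and the medians of all genes fell along it. With the trend over GC content removed on each array, the members' median minus that of all genes was 0.156.

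The 3 genes called higher were Zfp658, Zfp408 and Zfp953. Zfp953 had log2 signals of 6.32, 6.49, 6.58 and 6.31 in subpolysomes and of 6.31, 6.31, 6.23 and 6.27 on polysomes of scramble cells. In eIF6 shRNA cells they were 6.10, 6.13, 6.30 and 5.99 against 6.50, 6.46, 6.52 and 6.40. All polysomal arrays were above all subpolysomal arrays with the eIF6 shRNA and not with the scramble, a change of 0.48 (SE 0.12, adjusted p = 0.0485 from limma). Its subpolysomal signal fell by 0.30 on the log2 scale (adjusted p = 0.0133), and its polysomal change was 0.19 (adjusted p = 0.125). The call was lost in 13 of the 16 fits that left out 1 array. Zfp953 overlaps Zfp595 in RefSeq, whose finger-coding probe, printed above, had a change in translational efficiency of 0.63 and whose other probe had one of 0.27.

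Zfp658 had log2 signals of 12.91, 12.79, 12.60 and 12.78 in subpolysomes and of 9.83, 9.80, 9.86 and 9.53 on polysomes of scramble cells. In eIF6 shRNA cells they were 12.40, 12.26, 12.30 and 12.28 against 10.02, 9.83, 10.05 and 9.90. Its log2 ratio was -3.01 in scramble and -2.36 in eIF6 shRNA cells (change 0.65, SE 0.13, adjusted p = 0.0139 from limma). Zfp408 had ratios of -2.85 and -2.36 (change 0.49, SE 0.09, adjusted p = 0.0104). The difference lay in the subpolysomal signal, which was 16.95, 16.81, 16.80 and 16.86 in scramble and 16.33, 16.33, 16.33 and 16.32 in eIF6 shRNA cells for Zfp408 (-0.53, adjusted p = 1.43e-05) and changed by -0.46 for Zfp658. Their polysomal changes were -0.04 and 0.19 and were not called.

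The probes of Zfp408 and Zfp658 carry runs of bases that many other genes on the array also carry. Each member probe was compared with all other probes for runs of at least 16 identical bases on the same strand, after the values had been seen. Of the 353 member probes, 22 (6.23%, in 21 genes) shared such a run with at least 5 other gene names, against 711 of all 18770 probes tested (3.79%), and 10 of the 22 were finger-coding. The run most often shared is shown in capitals for each of the 4 genes, because most genes with that run moved alike.
Zfp408: GTGTGTCTGAAGACAG
Zfp658: TTCTGGTGTGTCTGAA
Zfp663: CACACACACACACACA
Zfp791: TGTGTGTGTGTGTGTG

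The probe of Zfp408 shared runs with 16 other genes and that of Zfp658 with 12, of which 11 were tested. The 11 had a median log2 ratio of -2.66 in scramble cells, all below 0, and a median change in translational efficiency of 0.48 (range 0.10 to 0.80), all above 0. Among them was Utp6, a gene of ribosomal RNA processing, at -3.47 and 0.48. For the 16 genes of Zfp408 the medians were -1.48 and 0.26, with 14 of 16 below 0 in the ratio and 14 of 16 above 0 in the change.

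The probe of Zfp663 carries CA repeats. Its subpolysomal log2 signals were 14.22, 13.93, 13.92 and 13.79 in scramble and 12.96, 13.06, 12.91 and 13.06 in eIF6 shRNA cells, and its polysomal ones 11.39, 11.42, 11.24 and 11.18 against 10.33, 10.46, 10.42 and 10.41. No groups overlapped, with changes of -0.97 and -0.90 and ratios of -2.66 and -2.59. It shared runs with 34 other genes, and the 32 that were tested had median changes of -0.87 in subpolysomes, where 30 were below 0, and of -0.48 on polysomes, and a median ratio of -2.05 in scramble cells. Fgf23, Snap25 and Oprm1, which encode a hormone of bone, a synaptic protein and an opioid receptor, changed by -1.12, -1.22 and -1.11 in subpolysomes.

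The probe of Zfp791 carries TG repeats, the complement of the run of Zfp663, and moved the opposite way. Its polysomal signals were 10.34, 10.37, 10.65 and 9.88 in scramble and 11.15, 10.91, 10.90 and 10.96 in eIF6 shRNA cells (change 0.67, SE 0.13, adjusted p = 0.000675 from limma), and the subpolysomal change was also 0.67. The 73 tested genes of the 74 that shared a run with it had a median change of 0.67 on polysomes, 72 of them above 0, and of 0.54 in subpolysomes, 70 above 0. Sharing did not always go with like values: the 13 genes that shared the GAG repeats of Zfp428 all had a ratio below 0 in scramble cells (median -0.87), while the Zfp428 probe with the repeats was at 1.27. The part of the shared runs in these results was not tested. Without the shared probes, 13 members were lower and 24 higher on polysomes, 47 lower and 14 higher in subpolysomes, and 0 were called in translational efficiency, where Zfp953 had an adjusted p of 0.052. The members' median minus that of all genes was then 0.171 in translational efficiency and -0.335 for the ratio in scramble cells.

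**Figure D5:**
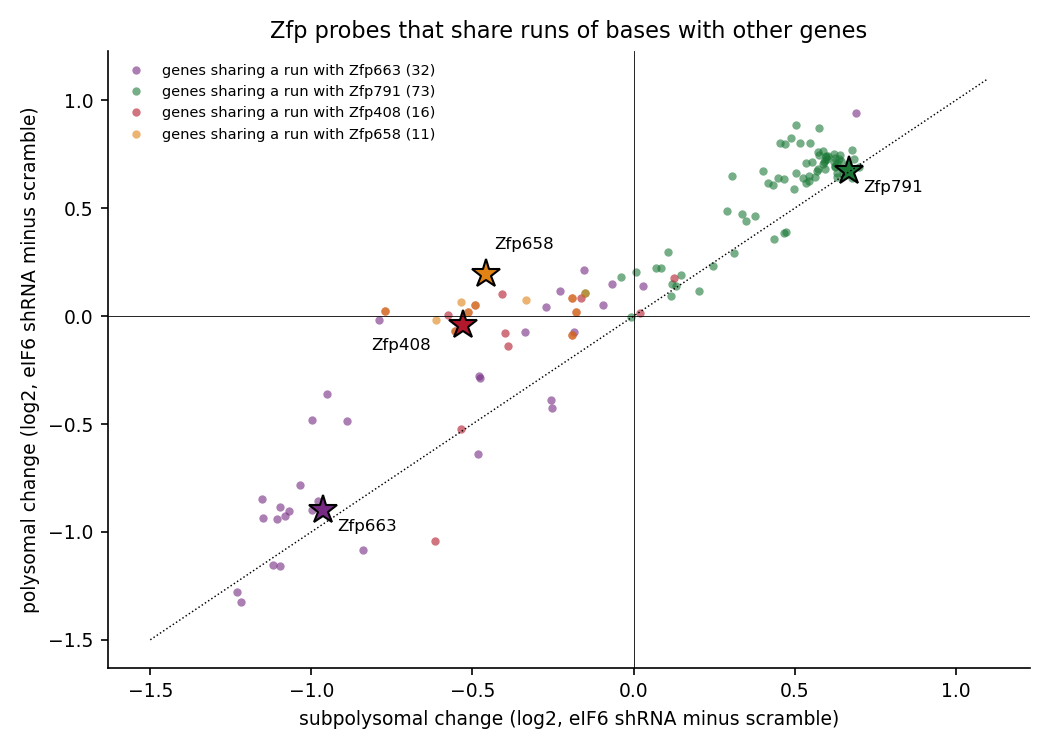
Log2 change in subpolysomes (horizontal) and on polysomes (vertical), eIF6 shRNA minus scramble, for Zfp663, Zfp791, Zfp408 and Zfp658 (stars) and for the tested genes whose probes share a run of at least 16 bases with theirs (points). The dotted line marks equal changes. The genes of Zfp791 lie at the upper right around 0.54 and 0.67, and most of those of Zfp663 at the lower left around -0.87 and -0.48.

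Finger-coding probes had a median change in translational efficiency of 0.28, against 0.17 for the other 319 member probes, and medians of -0.22 against -0.11 in subpolysomes and 0.17 against 0.06 on polysomes. The probes of Zfp595, Zfp81, Zfp58, Zfp457 and Zfp534 printed above were at 0.63, 0.62, 0.48, 0.44 and -0.41, and 6 of the 34 were below 0. In the 19 genes with both kinds of probe, the mean of the finger-coding probes was the higher in 10 and the lower in 9. The median difference, finger-coding minus other, was 0.148 in these genes. With 10 above 0 and 9 below, this median is the smallest of the positive differences and not a typical excess. Signal from related fingers cannot be told apart from that of a probe's own gene on these arrays. Among the 81 members with several probes, all probes had the same sign in 60 for translational efficiency, 58 on polysomes and 57 in subpolysomes.

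The members were spread over the genome unevenly, with 69 on chromosome 7 (26.8%), 31 on chromosome 17 and 19 on chromosome 13. Neighbours no more than 200000 bases apart formed clusters of at least 3 that held 113 members, and the median change in translational efficiency was 0.20 inside and 0.18 outside these clusters. A cluster of 10 genes on chromosome 13 between 67355915 and 67927687 (mm9) held Zfp953, Zfp595, Zfp457, Zfp458, Zfp58, Zfp65, Zfp87, Zfp273, Zfp429 and Zfp748. All 10 were above 0 in translational efficiency (median 0.38, range 0.12 to 0.59) and Zfp953 was called. All 10 were also below 0 in the ratio in scramble cells (-1.11 to -0.04). A cluster of 14 genes on chromosome 17 (21535980 to 22593580) had a median of 0.27 (range 0.06 to 0.41), and the largest, with 15 genes on chromosome 7 (30566378 to 30946287), of 0.18 (range -0.44 to 0.61). A cluster of 6 genes elsewhere on chromosome 7 (4873434 to 5005119) differed in its values, with a median of -0.12 in translational efficiency and of 0.23 in each fraction. It held Zfp524 and Zfp784, which were higher in both fractions, beside Zfp579, Zfp580, Zfp628 and Zfp865. Genes of a cluster are related in sequence, so their probes are not independent.

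Other families of finger proteins were set beside the Zfp genes as counts. Of 40 Zbtb genes, whose fingers follow a BTB domain, 36 were tested, and their median change in translational efficiency was 0.16, with 9 higher and 0 lower on polysomes and 4 higher and 2 lower in subpolysomes (all genes: 13% and 11.8% on polysomes, 15.5% and 14.3% in subpolysomes). Zbtb4, a factor that binds methylated DNA, was higher in both (0.81 and 0.59). Of 26 Zscan and Zkscan genes, whose fingers follow a SCAN domain, 14 were tested, with a median of 0.20, 7 higher on polysomes and 4 in subpolysomes. Of 17 Klf genes, with a row of fingers at the end of the protein, 11 were tested, with a median of 0.00. In scramble cells 17 Zbtb genes were lower and 6 higher on polysomes than in subpolysomes, against 3 lower and 5 higher Klf genes (all genes: 33.4% lower and 35.4% higher). No member of these families was called in translational efficiency, where few of all genes were called (1.47% lower and 0.363% higher). The differences between families were not tested.

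Of 20 genes chosen as partners of KRAB silencing, 18 were tested, and 2 were lower on polysomes and 4 in subpolysomes, with none higher, beside 11.8% and 14.3% of all genes called lower. Cbx3, which encodes the heterochromatin protein HP1 gamma, was lower in both (-0.37, adjusted p = 0.0298, and -0.40, adjusted p = 0.0174, from limma). Pphln1, of the HUSH complex, was lower on polysomes (-0.33, adjusted p = 0.0453). Trim28 changed by 0.08 and 0.24 and Setdb1 by 0.00 and -0.25, and neither was called. The partners had a median change in translational efficiency of 0.03.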

How the data were processed

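Log2 intensities were analysed for 16 arrays, 4 in each of 4 groups, with groups taken from the sample labels. The authors deposited the scanner software's processed intensity per spot, with background removed and no normalization across arrays. The file headers name Agilent Feature Extraction 10.7.3.1, while the submitters' processing notes name 10.7.7.1. A deposited table of log2 values, quantile normalized by the authors, correlated with the log2 intensities at 0.995 to 1.000 and served as an alternative.

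Control spots and spots marked as uneven or outliers were left out, and no member lacked an array. Quantile normalization used probes that at least 1 group showed well above background on 2 or more arrays. A gene's value was the mean of its probes well above background on all 16 arrays. limma 3.58.1 in R 4.3.3 fitted 4 group means, and 5 contrasts were tested two-sided with Benjamini-Hochberg adjustment over 14582 genes at 0.05. SE is the standard error of limma's contrast. The procedure was tested on simulated data. Replicates are described as biological, and p values measure the spread between these samples. Tables and figures were made with Python 3.11.15, pandas 2.3.3 and matplotlib 3.10.9.

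The members and all gene lists were chosen with earlier results of these data known, so their counts are descriptions. Besides list members, the text names for each comparison up to 6 members per direction with the largest change among those called. These had no overlap of the groups and the same sign in each probe. For translational efficiency, ratios formed by replicate number did not overlap, although pairing by these numbers was not established. The alternatives were spike-in scaling (7 probes), 75th percentile scaling, fractions normalized separately, normexp with an offset of 50, other detection filters, the brightest probe, the authors' table, slide or replicate number as a block, removal of the trend over probe GC content, each array left out in turn, and a t-test. For these arrays the paper's methods name linear models and limma's moderated t-test. Leaving out shared probes was chosen after seeing the data. Of the members, 254 names matched a RefSeq symbol and 3 a synonym, and 87 overlap another RefSeq gene. No table of protein sequences was used here.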

Additional observations from a re-analysis of the deposited data

Results flagged for a closer look

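In 124 groups of 4 arrays (30 named genes and the family's distance from all genes, in each group), 6 had an array far from the other 3, and chance gives about 1 in 20. In scramble subpolysomes, replicate 4 was low for Zfp101 (8.93, others 9.27 to 9.32) and for Zfp9 (5.40, others 6.25 to 6.35). In eIF6 shRNA subpolysomes, replicate 2 was low for Zfp503 (4.12, others 4.83 to 4.93). On eIF6 shRNA polysomes, replicate 4 was low for Zfp358 (11.58, others 11.84 to 11.89) and Zfp605 (6.29, others 6.66 to 6.73), and replicate 1 was high for Zfp229 (6.35, others 6.11 to 6.14). The change between the shRNAs differed between the fractions, by limma's interaction term, for Zfp408 (0.49), Zfp658 (0.65) and Zfp953 (0.48).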

How the results depend on the processing

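With the 75th percentile, members with a lower and a higher ratio numbered 187 and 17 in scramble and 165 and 28 in eIF6 shRNA cells, 11 were higher in subpolysomes, and 1 was lower and 1 higher in translational efficiency. With spike-in probes, 2 were lower and 181 higher in the ratio in scramble cells, 1 and 169 in eIF6 shRNA cells, 3 and 0 on polysomes, 2 and 0 in subpolysomes, and 0 higher in translational efficiency. The members' median minus that of all genes was -0.441 and -0.255 for these ratios under both scalings, which cancel in this difference. It was -0.211 (scramble ratio), -0.101 (subpolysomes) and 0.12 (translational efficiency) with normexp, -0.122 in subpolysomes with the GC trend removed, and -0.058 for the ratio in eIF6 shRNA cells without a detection filter. Higher subpolysomal genes numbered 10 with probes on at least 2 arrays of a group and 8 without a filter, and fractions normalized separately gave 1 lower translational efficiency. That setting puts no common scale between fractions, so its ratios were not used. Before adjustment the alternative t-test gave 22 polysomal and 83 subpolysomal decreases, and 46 genes higher and 1 lower in translational efficiency, with 1 higher there after adjustment. Without shared probes 0 were higher in translational efficiency. The cause of these moves was not tested, apart from the choice of probes or samples itself.

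Among 59 results on named genes, directions turned with spike-ins for Zfp30 (-0.0598), Zfp622 (-0.015) and Zfp91 (-0.28) on polysomes and Zfp329 (0.089) in the scramble ratio. In subpolysomes they turned for Zfp423 with probes on at least 2 arrays (-0.49) or no filter (-0.63), and for Zfp467 with the brightest probe (0.10). The ratios of the KRAB and RNA genes were not among these 59. With spike-ins, 5 of the 257 members were below 0 in the scramble ratio, against 185 in the main fit. In the eIF6 shRNA ratio 7 were below 0, against 149, so most ratios below 0 turned. With each array left out, lower and higher members ranged over 12 to 16 and 19 to 32 on polysomes, 41 to 62 and 11 to 22 in subpolysomes, 0 to 0 and 2 to 5 in translational efficiency, 125 to 137 and 27 to 33 in the scramble ratio and 96 to 103 and 48 to 60 in the eIF6 shRNA ratio. The medians' differences ranged over 0.032 to 0.093, -0.159 to -0.123, 0.137 to 0.202, -0.344 to -0.269 and -0.168 to -0.119. Of 59 results on named genes, 5 lost their call in such a fit and 0 turned. Under the other alternatives they lost a call in 63 cases, 35 of them with spike-in scaling.

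Pairing of the samples by replicate number was not established. Same-numbered deviations correlated at -0.19 to 0.23 between the fractions of the same shRNA. Between the shRNAs in the same fraction they correlated at -0.21 to 0.71. Not every sample correlated best with its own number, but low correlations cannot exclude that same-numbered fractions came from the same cells. With the replicate block, 14 members were lower and 24 higher on polysomes, 52 and 16 in subpolysomes and 0 and 3 in translational efficiency, and Zfp91 on polysomes (adjusted p = 0.058) and Zfp30 in subpolysomes (adjusted p = 0.052) were not called.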
